A study of Rattus norvegicus with 6 samples.

Results

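Transcripts of the interleukins, the gp130 cytokines, the TNF family and their receptors were described in the lesion centre of the injured rat spinal cord. The members were all rows of the deposited gene count table whose symbol begins with Il, Tnfsf or Tnfrsf followed by a digit, or is Tnf, Lif, Lifr, Osm, Osmr, Cntf, Cntfr, Clcf1, Csf1, Csf2 or Csf3. This gave 111 of 33455 genes: 51 ligands, 52 receptors, 7 soluble antagonists or decoys, and Il4i1, an enzyme that shares the prefix. Family genes that the table lists under other symbols, among them LOC names described as IL-3, IL-17A, TNFSF12 and TNFSF13, lay outside the rule. The 6 libraries came from wild type rats with a contusion at the T9 segment, 3 labelled Gel+US and 3 labelled Piezo Gel+US. Both groups share the injury and the ultrasound, which was aimed at the site of the implant at 100 Hz and 1.0 W/cm2 for 10 min a day over 4 weeks. What the 2 gels are made of is not stated in the labels, and the study's title names a biodegradable piezoelectric implant, a material that turns mechanical strain into electric charge. Strain, age, sex and the day of tissue collection are not given in the sources used here, no library without injury or ultrasound was analysed, and the libraries are labelled as biological replicates. Each library held 17212653 to 21436820 counts, of which the members together took 1268 to 1721 CPM. Piezo Gel+US replicate 2 stood apart by Schwann cell markers and Gel+US replicate 3 by low neutrophil markers, with values given further on. The comparison asks which cytokine transcripts differed between the Piezo Gel and the Gel under the same ultrasound.

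Cytokines of these families are small secreted or membrane-bound proteins through which cells of injured tissue signal to each other. IL-1 family ligands act through a paired receptor and MyD88 to NF-kB. Cytokines of the gp130 group, which include IL-6, LIF, OSM and CNTF, bind a specific receptor chain and then the shared chain gp130, encoded by Il6st, which activates the JAK kinases and STAT3. TNF ligands act as trimers on receptors that recruit TRAF adaptors or, through a death domain, TRADD and FADD. In contused spinal cord, IL-1 and TNF are known as early products of microglia and infiltrating leukocytes, CNTF as a product of astrocytes and Schwann cells, and IL-34 and CSF1 as survival factors for microglia and macrophages.

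Promoters of 3 members are shown because the results turn on these genes: Cntf and Il16 had the lowest p among all members, and Il1b varied most between libraries. Each is RefSeq sequence of the Norway rat assembly GRCr8 from 250 bases before to 50 bases after the annotated start, read 5′ to 3′ on the gene's strand. Capitals mark matches to the AP-1 motif TGANTCA or the TATA box TATAAA.
Cntf, chr1:219314486-219314785, minus strand: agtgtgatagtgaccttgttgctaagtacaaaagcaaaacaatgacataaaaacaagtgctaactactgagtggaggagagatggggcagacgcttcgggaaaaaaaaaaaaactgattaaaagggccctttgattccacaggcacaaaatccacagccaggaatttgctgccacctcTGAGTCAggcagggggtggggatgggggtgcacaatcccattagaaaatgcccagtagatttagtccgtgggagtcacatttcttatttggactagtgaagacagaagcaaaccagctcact
Il16, chr1:147116693-147116992, minus strand: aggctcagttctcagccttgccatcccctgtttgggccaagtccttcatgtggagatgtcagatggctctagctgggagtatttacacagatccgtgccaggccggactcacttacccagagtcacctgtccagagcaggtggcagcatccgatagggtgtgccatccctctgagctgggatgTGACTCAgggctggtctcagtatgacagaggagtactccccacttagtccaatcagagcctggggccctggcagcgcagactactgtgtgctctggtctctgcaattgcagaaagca
Il1b, chr3:137036532-137036831, minus strand: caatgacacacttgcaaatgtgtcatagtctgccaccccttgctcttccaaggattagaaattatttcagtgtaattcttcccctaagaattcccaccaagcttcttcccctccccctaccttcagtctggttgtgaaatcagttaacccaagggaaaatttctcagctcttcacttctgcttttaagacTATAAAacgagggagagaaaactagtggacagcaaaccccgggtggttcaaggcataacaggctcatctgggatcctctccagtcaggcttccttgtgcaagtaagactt
Cntf and Il16 each held 1 AP-1 match, 72 to 66 bases and 67 to 61 bases before the start, and Il1b held 1 TATA match on the forward strand, 60 to 55 bases before it. Promoters were matched by symbol for 83 of the 111 members. The TATA letters occurred on the forward strand in 10 of these and in 9.08% of all promoters. The AP-1 letters occurred on either strand in 13.3% of these and in 7.33% of 27457 rat promoters of the same length. A kappaB motif, GGG and TTTCC separated by any 2 bases, was searched on both strands and occurred in 7.23% of the members' promoters (Il1rn, Il23r, Il4r, Il6, Il9 and Tnfrsf4) and in 1.51% of all. For a STAT motif searched as TTCNNNGAA the shares were 10.8% and 8.68%, and for the PU.1 letters GAGGAAGT 2.41% and 2.44%. These windows are those of the reference, not of the unnamed assembly behind the deposited table. The motifs do not overlap in the sequences shown, and a match describes letters only.

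No member passed the test between the groups. Of the 111 members, 103 had a count in at least 1 library and 69 passed the low-count filter, which keeps genes of about 10 counts in 3 or more libraries. By edgeR's quasi-likelihood test 0 of these 69 were called at an adjusted p below 0.05, where the share called over all 17066 genes tested was 0%, and the smallest adjusted p of a member was 0.994. At an unadjusted p below 0.05 the test gave 2 members, Cntf and Il16, both higher in Piezo Gel+US, which is 2.90% of the members against 2.10% of all genes. Over all genes 1.38% were higher and 0.721% lower at that level. DESeq2 likewise called 0 members, with 2 of 103 at that unadjusted level, where 652 of 23195 genes reached it. The log2 ratios, Piezo Gel+US over Gel+US from the edgeR fit, ran from -1.02 for Il7 to 1.59 for Il1r2, with 28 members above 0 and 41 below (40.6% above, against 47.1% of all genes). Omitting Gel+US replicate 2 turned this to 46 above and 23 below. The median was 0.096 for the 23 tested ligands and -0.21 for the 40 tested receptors, beside -0.021 over all genes. Without Gel+US replicate 2 the receptor median was 0.30 and the ligand median 0.63. The receptor median was -0.35 without Piezo Gel+US replicate 1. Each of these fits was filtered anew, so these medians cover other sets, drawn from 73 and 75 tested members. Over the same 69 members the median moved from -0.099 to 0.32 without Gel+US replicate 2.

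Of the 69 tested members, groups did not overlap for 1, Il6st, which was lower in every Piezo Gel+US library. That is 1.45% of the tested members, where 6.81% of all genes tested did not overlap, 4.08% with Piezo Gel+US higher and 2.73% with it lower. Library numbers 1 to 3 occur in both groups. Comparing libraries of equal number, 6 members were higher in Piezo Gel+US in all 3 comparisons (Cntf, Il16, Il17d, Il33, Il3ra and Tnfrsf25), 8.70% against 14.3% of all genes. In the other direction 5 were lower in all 3 (Il12rb2, Il6st, Il7, Lifr and Tnfrsf11a), 7.25% against 14.7% of all genes. With the replicate number as a block, edgeR gave 4 members at an unadjusted p below 0.05 (Tnfrsf25, Il16, Il33 and Cntf), or 5.80%, the share of all genes being 5.78%, and called 0. These shares lie close to or below those of the table as a whole.

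**Figure D1:**
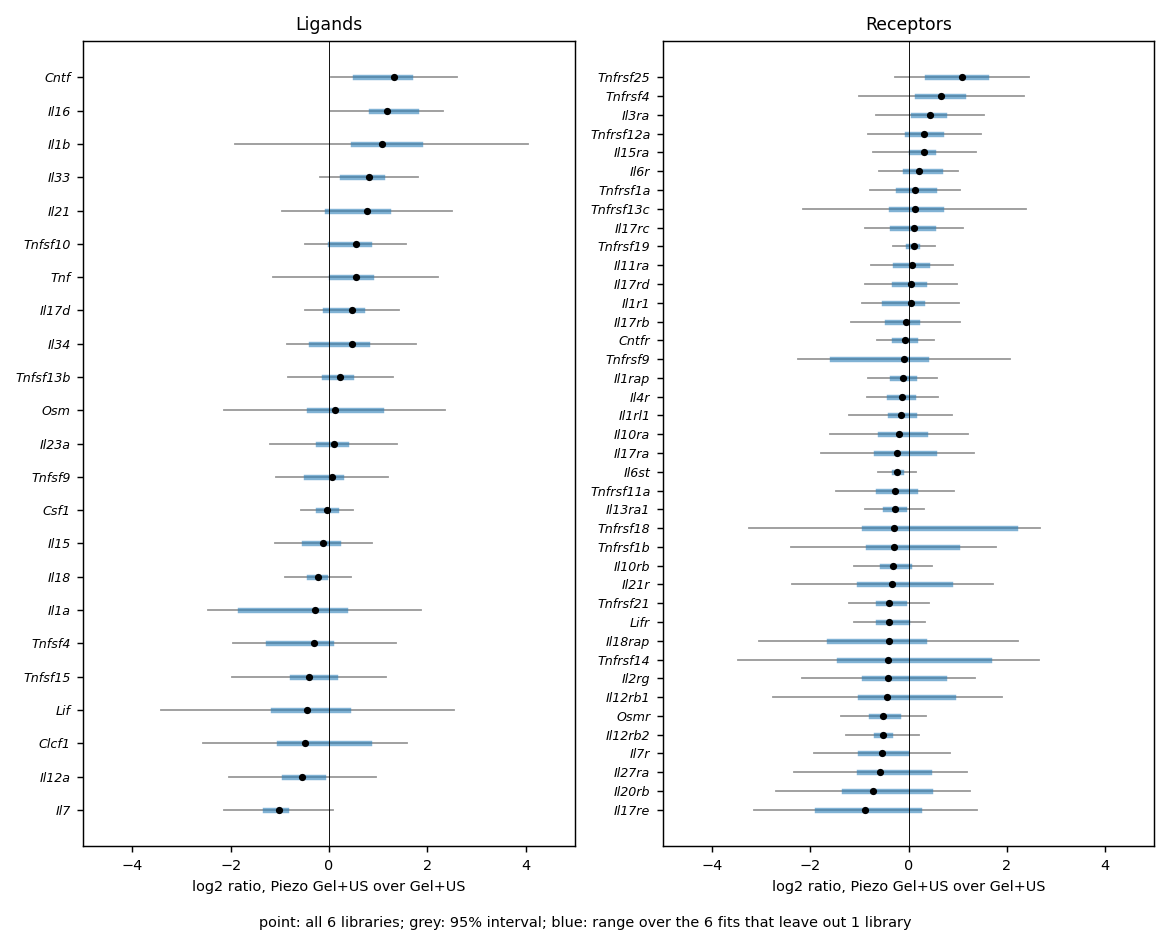
Log2 ratio of CPM, Piezo Gel+US over Gel+US, of the 23 tested ligands and 40 tested receptors (points), with 95% intervals in grey and the range over the 6 fits that leave out 1 library in blue. The intervals of Cntf and Il16 alone exclude 0, and the blue range crosses 0 for many members.

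Among the 31 interleukin ligands, 12 were tested, and Il33, Il34 and Il16 had the highest levels per kilobase of transcript. In the values that follow, the 3 numbers of a group are its replicates 1 to 3 in that order, in CPM, the count divided by the scaled library size and brought to a common total. Il16, a chemoattractant for CD4+ cells released from a larger precursor, measured 48.2, 106 and 34.1 CPM in Gel+US and 86.3, 191 and 147 CPM in Piezo Gel+US (log2 ratio 1.17, 95% interval 0.019 to 2.33). The Piezo Gel+US values were high in replicates 2 and 3, and the lowest of them lay under the highest Gel+US value. The deposited table places Il16 at 116606788 to 116686078 (plus strand of an assembly it does not name), and a pseudogene is annotated within its span on the other strand. Il33, an alarmin of the IL-1 family stored in nuclei of glia and stromal cells, measured 30.9, 52.7 and 44.0 CPM in Gel+US and 42.2, 122 and 60.3 CPM in Piezo Gel+US (log2 ratio 0.81, 95% interval -0.18 to 1.81). Il34, a ligand of the CSF1 receptor, measured 31.8, 44.3 and 20.0 CPM in Gel+US and 21.5, 82.0 and 28.7 CPM in Piezo Gel+US (log2 ratio 0.46, 95% interval -0.85 to 1.77). Il16, Il33 and Il34 all had their highest value in Piezo Gel+US replicate 2, and omitting it gave log2 ratios of 0.89, 0.26 and -0.36 for Il16, Il33 and Il34. For Il16 the value moved further with Gel+US replicate 2 left out, to 1.77. Per kilobase, the ranges of Il33, Il34 and Il16 over the 6 libraries overlapped, so their order is not separated from the spread.

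Il1b, the secreted IL-1 of activated myeloid cells, had the widest range of any tested member. Its counts were 228, 324 and 2 in Gel+US and 447, 120 and 621 in Piezo Gel+US, which gives 11.4, 18.0 and 0.100 CPM in Gel+US and 23.9, 6.04 and 32.1 CPM in Piezo Gel+US (log2 ratio 1.07, 95% interval -1.91 to 4.05). The 2 counts in Gel+US replicate 3 stand apart from the other 5 libraries. The log2 ratio was 0.48 without that library and 1.84 without Gel+US replicate 2. Il1a, the second agonist, which cells hold as an alarmin, lay far lower at 0.351, 0.611 and 1.25 CPM in Gel+US and 0.213, 0.201 and 1.40 CPM in Piezo Gel+US (log2 ratio -0.29, 95% interval -2.45 to 1.88), with its highest values in the replicates numbered 3 of both groups. Without Piezo Gel+US replicate 3 its log2 ratio was -1.80. Il18, which also needs cleavage by caspase-1, varied little, with 9.07, 10.2 and 6.36 CPM in Gel+US and 8.70, 5.99 and 7.14 CPM in Piezo Gel+US (log2 ratio -0.23, 95% interval -0.91 to 0.44). Il1a and Il1b lie next to each other in the deposited table, from 108058889 to 108115688, yet of the pair only Il1b was near 0 in Gel+US replicate 3. The low counts of Il1a, 4 to 27 per library, limit that comparison.

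Il7, the stromal survival factor of T cells, had the lowest p among members lower in Piezo Gel+US. It measured 0.952, 2.05 and 2.05 CPM in Gel+US and 0.747, 1.01 and 0.724 CPM in Piezo Gel+US (log2 ratio -1.02, 95% interval -2.13 to 0.082), and the highest Piezo Gel+US value lay between the Gel+US values. Il17d, a member of the IL-17 family, measured 7.06, 9.72 and 7.07 CPM in Gel+US and 7.42, 17.9 and 7.76 CPM in Piezo Gel+US (log2 ratio 0.47, 95% interval -0.49 to 1.43), with Piezo Gel+US replicate 2 apart from the rest. Il15, presented to T and NK cells by the IL-15 receptor alpha chain, measured 7.31, 10.2 and 4.51 CPM in Gel+US and 5.02, 9.96 and 5.38 CPM in Piezo Gel+US (log2 ratio -0.11, 95% interval -1.11 to 0.88). Il15 was high in the libraries numbered 2 of both groups. The other tested interleukin ligands, Il12a, Il21 and Il23a, stayed below 4 CPM in every library, with log2 ratios of -0.55, 0.77 and 0.096.

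Many ligands were at or near the detection limit. Il4, Il9, Il10, Il17f, Il19 and Csf2, like the receptor Il5ra and the antagonist Il36rn, had 0 counts in all 6 libraries. That allows up to 0.150 to 0.167 CPM in a library (3 counts, for counting error only). Il2 had 2 counts in total, Il5 1, Il13 3 and Il22 4. Il6, a main early ligand of gp130, had 17 counts in total over 5 libraries, and Il11 had 56. In all, 28 of the 51 ligands were not tested and shared 323 counts, none of them above 67. All 9 matched T and NK cell markers had counts in every library. They summed to 37.7 to 223 CPM in Gel+US and 36.4 to 107 CPM in Piezo Gel+US. At the lowest sums Cd4 alone gave 33.0 CPM in Gel+US replicate 3 and 24.7 CPM in Piezo Gel+US replicate 2. In Gel+US replicate 3, Cd3e had 4 counts, Cd3d 6 and Prf1 3, so these sums say little about T cells there. Among these untested ligands the groups did not overlap for Il36b, an agonist of the IL-36 receptor, with 2, 3 and 1 counts in Gel+US and 10, 7 and 7 in Piezo Gel+US. The same held for Il17b, of the IL-17 family, with 1, 0 and 2 counts against 6, 5 and 3. Both were higher in every Piezo Gel+US library, at counts of at most 10. The share of all untested genes whose groups do not overlap was not computed, so both stand without a background. With no low-count filter edgeR gave 4 of 103 members at an unadjusted p below 0.05, where 496 of 23240 genes reached that level. The members were the tested Cntf and Il16 plus Il36b (higher) and Tnfsf18 (16 counts, all in Gel+US), each with an adjusted p of 0.959. With so few counts, other differences among the untested ligands may lie under the detection limit.

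Among the gp130 ligands, Cntf stood out in level and in difference. CNTF supports motor neurons and oligodendrocytes and lacks a signal peptide. Cntf measured 40.2, 61.2 and 70.0 CPM in Gel+US and 62.0, 263 and 104 CPM in Piezo Gel+US, which is 57.1 ± 15.3 against 143 ± 106 CPM (mean ± SD, n = 3 each, log2 ratio 1.32, 95% interval 0.043 to 2.60, edgeR unadjusted p = 0.0446, adjusted p = 0.994). Piezo Gel+US replicate 2 was more than 2 times any other library, Piezo Gel+US replicate 3 came next, and replicate 1 lay within the Gel+US range. Without Piezo Gel+US replicate 2 the log2 ratio was 0.53. The deposited table places Cntf at 12800940 to 12805551 (minus strand), and no other gene of the table overlaps it. Clcf1, another ligand of the CNTF receptor, measured 2.91, 9.94 and 0.702 CPM in Gel+US and 2.24, 4.78 and 2.59 CPM in Piezo Gel+US (log2 ratio -0.49, 95% interval -2.57 to 1.58), highest in Gel+US replicate 2. Omitting that library gave 0.82.

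Lif and Osm, gp130 ligands made by injured glia and by leukocytes, were scarce. Osm measured 0.902, 2.00 and 0.150 CPM in Gel+US and 1.55, 0.302 and 1.45 CPM in Piezo Gel+US (log2 ratio 0.12, 95% interval -2.14 to 2.37), from 3 to 36 counts per library. Lif measured 0.902, 1.56 and 0 CPM in Gel+US and 0.107, 1.06 and 0.621 CPM in Piezo Gel+US (log2 ratio -0.45, 95% interval -3.43 to 2.54), from 0 to 28 counts. Both were highest in Gel+US replicate 2 and lowest in Gel+US replicate 3, so 1 group holds both ends of their range. Without Gel+US replicate 2 the log2 ratios were 1.05 for Osm and 0.39 for Lif. Csf1, the main growth factor of microglia and macrophages, was among the steadiest members at 79.8, 82.6 and 70.2 CPM in Gel+US and 92.5, 54.5 and 78.9 CPM in Piezo Gel+US, which is 77.5 ± 6.52 against 75.3 ± 19.3 CPM (mean ± SD, n = 3 each, log2 ratio -0.042, 95% interval -0.57 to 0.49), lowest in Piezo Gel+US replicate 2. Of the other colony-stimulating ligands, Csf3 had 2 counts and Csf2 none.

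TNF ligands were low throughout. Tnfsf10, the death ligand TRAIL, had the highest level per kilobase of its class and measured 6.61, 8.50 and 5.06 CPM in Gel+US and 5.44, 15.6 and 8.33 CPM in Piezo Gel+US (log2 ratio 0.54, 95% interval -0.49 to 1.57). It was highest in Piezo Gel+US replicate 2, without which its log2 ratio was 0.028. Tnf, the founding ligand of the family, had only 4 to 33 counts per library, or 1.30, 1.33 and 0.200 CPM in Gel+US and 0.907, 1.66 and 1.55 CPM in Piezo Gel+US (log2 ratio 0.54, 95% interval -1.13 to 2.21), with Gel+US replicate 3 apart from the others. Without that library its log2 ratio was 0.049. Tnfsf13b, the B cell survival factor BAFF, measured 2.71, 2.55 and 1.05 CPM in Gel+US and 2.67, 2.72 and 2.02 CPM in Piezo Gel+US (log2 ratio 0.23, 95% interval -0.84 to 1.30), and a non-coding gene on the opposite strand overlaps it. Without Gel+US replicate 3 its log2 ratio was -0.10. Tnfsf9, the ligand of the T cell costimulator 4-1BB, measured 1.35, 1.28 and 1.85 CPM in Gel+US and 1.07, 1.11 and 2.48 CPM in Piezo Gel+US (log2 ratio 0.054, 95% interval -1.09 to 1.2). Tnfsf4 and Tnfsf15, both T cell costimulators, had log2 ratios of -0.30 and -0.41, and Tnfsf8, Tnfsf11, Tnfsf14 and Tnfsf18 were below the filter with 14 to 47 counts in total.

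**Figure D2:**
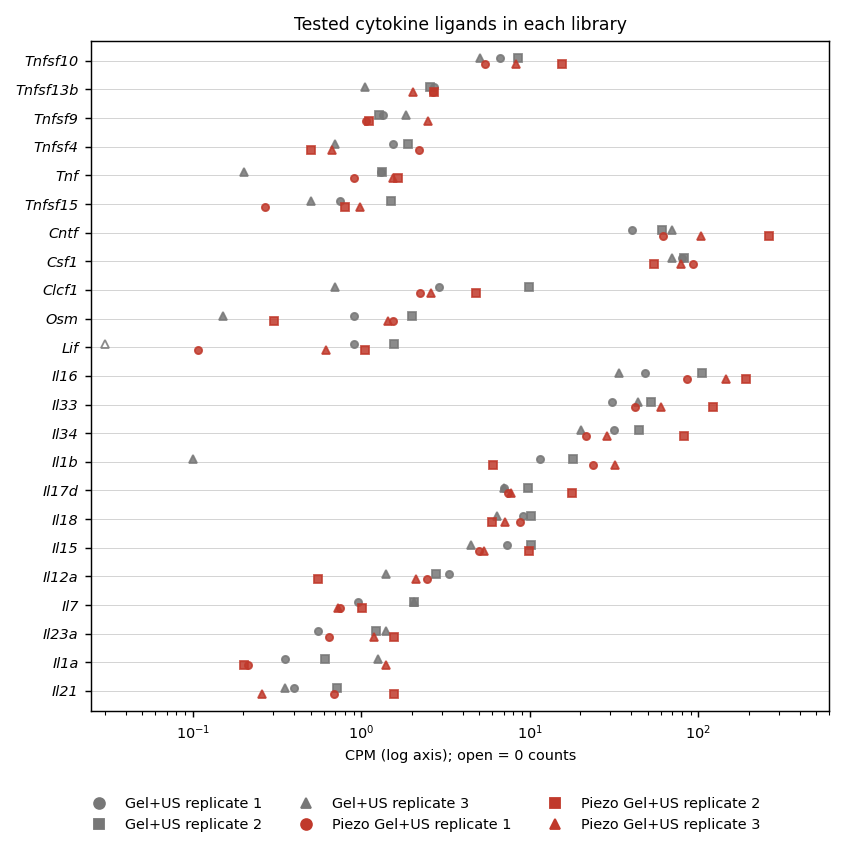
CPM on a log axis of the 23 tested ligands in each of the 6 libraries, Gel+US in grey and Piezo Gel+US in red, with a different marker for each replicate number and an open symbol for 0 counts. The groups overlap for every ligand, and Gel+US replicate 3 is lowest for Il1b, Lif and Osm, by far the most for Il1b.

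Of the gp130 receptors, Il6st and Cntfr were among the members with the highest level per kilobase and the smallest spread. Il6st, the shared signalling chain, measured 192, 226 and 190.1 CPM in Gel+US and 169, 183 and 164 CPM in Piezo Gel+US, which is 203 ± 20.1 against 172 ± 10.1 CPM (mean ± SD, n = 3 each, log2 ratio -0.24, 95% interval -0.63 to 0.16, edgeR unadjusted p = 0.196, adjusted p = 0.994). The highest Piezo Gel+US library lay just under the lowest Gel+US library, and the ratio kept its sign whichever library was omitted, from -0.29 to -0.16. Lifr, which pairs with gp130 for LIF and CNTF, measured 90.9, 69.0 and 148 CPM in Gel+US and 84.3, 64.2 and 85.2 CPM in Piezo Gel+US (log2 ratio -0.40, 95% interval -1.12 to 0.33). Gel+US replicate 3 was well above the others, and without it the log2 ratio was -0.044. Cntfr, the membrane-anchored CNTF receptor of neurons, measured 62.7, 60.6 and 62.9 CPM in Gel+US and 59.0, 41.2 and 77.5 CPM in Piezo Gel+US (log2 ratio -0.067, 95% interval -0.64 to 0.51), lowest in Piezo Gel+US replicate 2, the library where its ligand Cntf was highest. Il6st and Cntfr had similar levels per kilobase (35.3 and 33.5 CPM per kilobase on average) with overlapping ranges.

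Specific chains of the other gp130 cytokines followed no common direction. Il11ra measured 28.7, 52.6 and 32.0 CPM in Gel+US and 27.3, 56.4 and 35.4 CPM in Piezo Gel+US (log2 ratio 0.072, 95% interval -0.76 to 0.91), with the libraries numbered 2 of both groups above the rest. Il6r, the IL-6 receptor, measured 21.3, 36.8 and 14.5 CPM in Gel+US and 27.5, 26.7 and 29.5 CPM in Piezo Gel+US (log2 ratio 0.20, 95% interval -0.60 to 1.01), and its Piezo Gel+US values lay inside the wider Gel+US range. Osmr, the oncostatin M receptor of astrocytes and fibroblasts, measured 14.6, 22.2 and 10.9 CPM in Gel+US and 7.31, 14.4 and 11.5 CPM in Piezo Gel+US (log2 ratio -0.52, 95% interval -1.38 to 0.34), lowest in Piezo Gel+US replicate 1. Its log2 ratio ranged from -0.76 to -0.21 with 1 library left out, the latter without Gel+US replicate 2. In all, 5 of the 7 tested gp130 receptors were below 0 and 2 above, with a median of -0.24 and 0 called. Omitting Gel+US replicate 2 left 4 below (median -0.093), and omitting Gel+US replicate 3 left all 7 below (median -0.072).

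Of the interleukin receptors, 16 of 21 tested members were below 0 and 5 above, with a median of -0.23. This split rested on Gel+US replicate 2, since omitting it left 7 below and 14 above, with a median of 0.20. None was called, and the smallest unadjusted p was 0.134, for Il12rb2. Il1rap, the shared accessory chain of IL-1 and IL-33 signalling, measured 78.7, 58.7 and 90.5 CPM in Gel+US and 89.0, 44.8 and 75.9 CPM in Piezo Gel+US (log2 ratio -0.12, 95% interval -0.83 to 0.58). Il1r1, the signalling IL-1 receptor, measured 17.9, 17.7 and 10.7 CPM in Gel+US and 10.0, 25.8 and 11.95 CPM in Piezo Gel+US (log2 ratio 0.042, 95% interval -0.94 to 1.03), highest in Piezo Gel+US replicate 2 and -0.50 without it. The accessory chain and the receptor thus had their extremes at opposite ends in that library, since Il1rap was lowest there. Il1rl1, the IL-33 receptor ST2, measured only 2.40, 1.61 and 1.35 CPM in Gel+US and 1.76, 1.01 and 2.02 CPM in Piezo Gel+US (log2 ratio -0.17, 95% interval -1.22 to 0.89), and per kilobase it averaged 0.797 CPM against 36.4 for its ligand Il33. Il18rap, the accessory chain of the IL-18 receptor, had 3 counts in Piezo Gel+US replicate 2 and 18 to 105 elsewhere (log2 ratio -0.41, 95% interval -3.04 to 2.22). It changed sign to 0.30 without Gel+US replicate 2.

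Several receptors known from leukocytes had both their highest and their lowest value in Gel+US. Il17ra, the common IL-17 receptor chain, measured 62.2, 128 and 23.0 CPM in Gel+US and 89.3, 28.6 and 63.9 CPM in Piezo Gel+US (log2 ratio -0.23, 95% interval -1.79 to 1.33). Il10ra, the IL-10 receptor chain of leukocytes, measured 18.2, 29.1 and 7.07 CPM in Gel+US and 23.2, 7.55 and 16.8 CPM in Piezo Gel+US (log2 ratio -0.19, 95% interval -1.59 to 1.21), although its ligand had no counts. Il4r, the receptor chain shared by IL-4 and IL-13, measured 21.7, 24.8 and 11.5 CPM in Gel+US and 18.0, 16.1 and 18.9 CPM in Piezo Gel+US (log2 ratio -0.13, 95% interval -0.85 to 0.59). All 3 were highest in Gel+US replicate 2 and lowest in Gel+US replicate 3, as were 2 chains of lymphocyte cytokine receptors. Il2rg, the common gamma chain, measured 6.31, 19.1 and 2.00 CPM in Gel+US and 8.86, 5.33 and 6.36 CPM in Piezo Gel+US. Il21r, the IL-21 receptor, measured 4.31, 13.1 and 1.15 CPM in Gel+US and 8.48, 3.22 and 3.00 CPM in Piezo Gel+US. Omitting Gel+US replicate 2 gave 0.51, 0.32 and 0.079 for Il17ra, Il10ra and Il4r, and omitting Piezo Gel+US replicate 2 gave 0.098, 0.13 and -0.075. Il3ra, the IL-3 receptor alpha chain, measured 13.3, 11.8 and 4.56 CPM in Gel+US and 13.6, 18.0 and 8.48 CPM in Piezo Gel+US (log2 ratio 0.43, 95% interval -0.67 to 1.54), with 0.078 without Gel+US replicate 3. A gene annotated on the opposite strand overlaps Il3ra. Il12rb2, a chain of the IL-12 receptor of T cells, measured 4.21, 5.11 and 6.26 CPM in Gel+US and 3.68, 2.87 and 4.24 CPM in Piezo Gel+US (log2 ratio -0.53, 95% interval -1.27 to 0.21), and stayed below 0 in every fit that left out a library. Fewer cells of a type and less RNA per cell cannot be told apart in such bulk libraries.

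TNF receptors spanned the broadly expressed and the leukocyte forms. Tnfrsf1a, the widely expressed TNF receptor with a death domain, measured 58.1, 93.9 and 38.3 CPM in Gel+US and 56.1, 97.5 and 53.9 CPM in Piezo Gel+US (log2 ratio 0.12, 95% interval -0.80 to 1.05). Tnfrsf1b, the TNF receptor of leukocytes and microglia, measured 17.5, 60.0 and 4.86 CPM in Gel+US and 34.7, 9.81 and 21.9 CPM in Piezo Gel+US (log2 ratio -0.31, 95% interval -2.39 to 1.77). Its values ranged over 12.3 times between the lowest and highest library, both in Gel+US, against 2.54 times for Tnfrsf1a. Without Gel+US replicate 2 the log2 ratio of Tnfrsf1b was 0.98. Per kilobase, Tnfrsf1a averaged 30.3 CPM and Tnfrsf1b 8.56, with ranges of 17.5 to 44.6 and 1.68 to 20.7 that overlapped in part.

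Tnfrsf21, the death receptor DR6 of neurons and oligodendrocytes, measured 103, 70.4 and 149 CPM in Gel+US and 105, 56.6 and 83.6 CPM in Piezo Gel+US (log2 ratio -0.40, 95% interval -1.21 to 0.42). Tnfrsf11a, the receptor RANK, best known from osteoclasts, measured 47.6, 33.6 and 53.7 CPM in Gel+US and 46.1, 12.6 and 52.1 CPM in Piezo Gel+US (log2 ratio -0.28, 95% interval -1.49 to 0.92), lowest in Piezo Gel+US replicate 2. Both were highest in Gel+US replicate 3, and the log2 ratio of Tnfrsf21 was -0.089 without that library. Tnfrsf25, the death receptor DR3, had the highest log2 ratio among TNF receptors. It measured 6.31, 11.8 and 4.06 CPM in Gel+US and 9.45, 27.6 and 9.78 CPM in Piezo Gel+US (log2 ratio 1.08, 95% interval -0.28 to 2.44, edgeR unadjusted p = 0.102, adjusted p = 0.994), and 0.37 without Piezo Gel+US replicate 2. Tnfrsf19, also called TROY, a co-receptor for myelin inhibitors of axon growth, was the steadiest tested member at 30.1, 27.6 and 24.7 CPM in Gel+US and 27.5, 33.7 and 27.1 CPM in Piezo Gel+US, which is 27.5 ± 2.70 against 29.4 ± 3.70 CPM (mean ± SD, n = 3 each, log2 ratio 0.099, 95% interval -0.33 to 0.53). Tnfrsf12a, the injury-induced receptor Fn14, measured 5.31, 6.89 and 2.31 CPM in Gel+US and 4.11, 8.45 and 5.54 CPM in Piezo Gel+US (log2 ratio 0.32, 95% interval -0.82 to 1.46), with -0.029 without Gel+US replicate 3. Tnfrsf14, a receptor of lymphocytes for LIGHT, measured 1.65, 9.16 and 0.100 CPM in Gel+US and 5.44, 1.76 and 0.983 CPM in Piezo Gel+US (log2 ratio -0.41, 95% interval -3.48 to 2.65), and its value was 1.63 without Gel+US replicate 2.

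Of the 7 antagonists and decoys 5 were tested, 1 above 0 and 4 below. Il1rn, the IL-1 receptor antagonist, measured 1.80, 7.11 and 0.301 CPM in Gel+US and 4.86, 0.604 and 3.41 CPM in Piezo Gel+US (log2 ratio -0.051, 95% interval -2.71 to 2.61). Il1r2, the decoy receptor for IL-1 carried by neutrophils, measured 2.15, 3.50 and 0.0501 CPM in Gel+US and 2.29, 0.604 and 14.2 CPM in Piezo Gel+US (log2 ratio 1.59, 95% interval -1.74 to 4.92), from 1 count in Gel+US replicate 3 to 275 in Piezo Gel+US replicate 3. Without the latter its log2 ratio was -0.39. Il1b, Il1rn and Il1r2 were all lowest in Gel+US replicate 3, while their highest values lay in Piezo Gel+US replicate 3, Gel+US replicate 2 and Piezo Gel+US replicate 3. Without Gel+US replicate 2 the log2 ratio of Il1rn was 1.49. Il18bp, which binds IL-18, measured 6.26, 8.22 and 3.36 CPM in Gel+US and 5.55, 6.29 and 5.23 CPM in Piezo Gel+US (log2 ratio -0.063, 95% interval -0.94 to 0.81). Tnfrsf11b, the soluble decoy osteoprotegerin, measured 35.6, 30.7 and 31.0 CPM in Gel+US and 24.1, 24.0 and 43.0 CPM in Piezo Gel+US (log2 ratio -0.094, 95% interval -0.74 to 0.55), highest and lowest within Piezo Gel+US. Il22ra2, a soluble receptor for IL-22, measured 1.95, 3.55 and 1.45 CPM in Gel+US and 1.28, 0.302 and 1.86 CPM in Piezo Gel+US (log2 ratio -1.01, 95% interval -2.67 to 0.65), lowest in Piezo Gel+US replicate 2 and -0.57 without it. Il13ra2, an IL-13 decoy, was below the filter with 98 counts, 75 of them in Gel+US replicate 2. Il4i1, an L-amino-acid oxidase and no cytokine, measured 7.92, 7.89 and 6.01 CPM in Gel+US and 7.10, 8.90 and 9.88 CPM in Piezo Gel+US (log2 ratio 0.25, 95% interval -0.35 to 0.84).

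**Figure D3:**
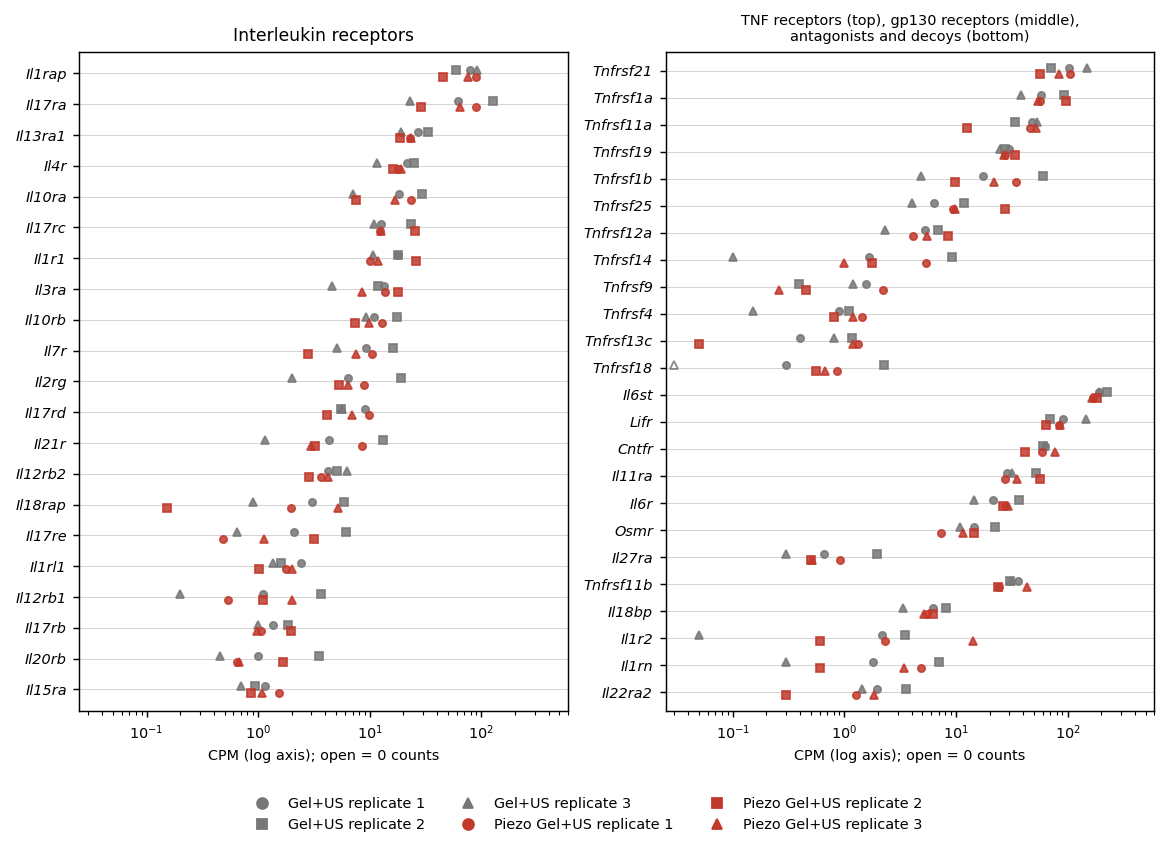
CPM on a log axis of the tested interleukin receptors (left) and of the TNF receptors, gp130 receptors and antagonists or decoys (right) in each library, Gel+US in grey and Piezo Gel+US in red, with an open symbol for 0 counts. Il6st alone has groups that do not overlap, while Il1r2, Tnfrsf14 and Il18rap are among those that spread over more than 10 times.

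Members varied more from library to library than most genes. The SD of log2 CPM over the 6 libraries had a median of 0.69 for tested members, 0.75 for ligands and 0.58 for receptors, against 0.38 over all genes. Many members are scarce, with a median mean level of 2.29 CPM for tested ligands and 11.4 CPM for tested receptors. Of the 69 tested members, 29 had their highest value in Gel+US replicate 2 (42.0%, against 19.0% of all genes) and 0 their lowest. Gel+US replicate 3 held the lowest value of 34 members (49.3%, against 26.6% of all genes). Both extremes thus lay within the Gel+US group. Piezo Gel+US replicate 2 held the highest value of 19 members (27.5%, against 29.2% of all genes) and the lowest of 20 (29.0%, against 28.4%). For ligands alone, that library held the highest value of 10 of 23, and for receptors of 9 of 40.

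**Figure D4:**
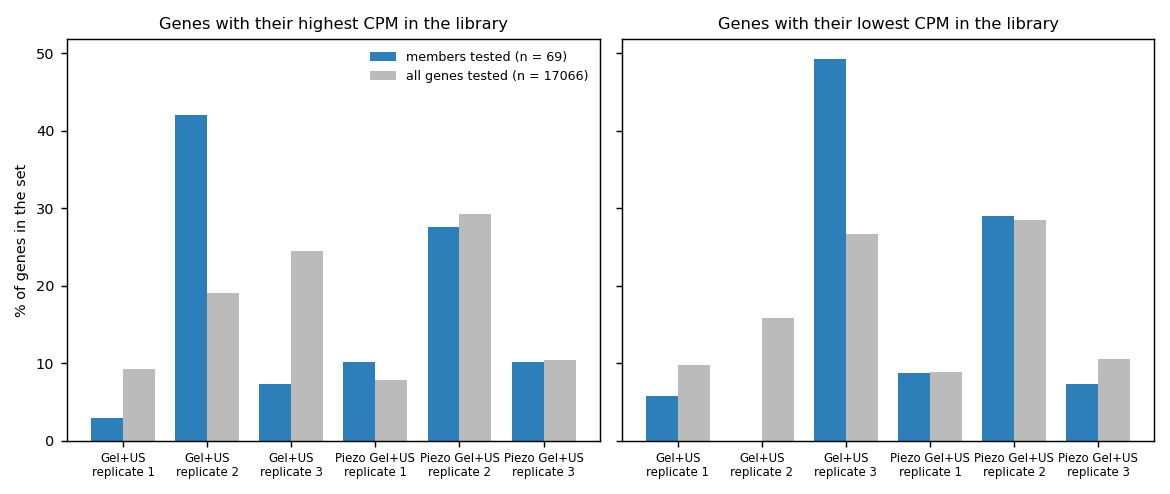
Share of genes whose highest (left) or lowest (right) CPM falls in each library, for the 69 tested members in blue and all 17066 tested genes in grey. Gel+US replicate 2 holds the highest value of 42.0% of members and the lowest of none, and Gel+US replicate 3 holds the lowest value of 49.3%.

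Some leukocyte marker lists had their extremes in the same libraries as the members, and others did not. The neutrophil markers, 8 of 9 listed with a row, summed to 124, 315 and 9.57 CPM in Gel+US and 182, 102 and 246 CPM in Piezo Gel+US, and Camp was at 0 in Gel+US replicate 3. Gel+US replicate 3 was thus lowest for these markers as it was for Il1b, Il1rn and Il1r2. T and NK cell markers summed to 82.8, 223 and 37.7 CPM in Gel+US and 107, 36.4 and 59.0 CPM in Piezo Gel+US. Of these sums Cd4 gave 63.8, 112 and 33.0 CPM in Gel+US and 65.8, 24.7 and 41.4 CPM in Piezo Gel+US. All 9 tested markers were lower in Piezo Gel+US, as were 9022 of the 17066 genes tested, and 0 were called. Each of the 9 had its highest value in Gel+US replicate 2. B cell markers, 6 of 6 with a row, summed to 11.7, 51.8 and 1.40 CPM in Gel+US and 43.5, 15.3 and 9.78 CPM in Piezo Gel+US. Both lymphocyte lists were highest in Gel+US replicate 2, where Il2rg, Il21r, Il7r, Tnfrsf14 and Tnfrsf1b were highest. Macrophage markers, 7 of 9 with a row, summed to 278, 327 and 178 CPM in Gel+US and 389, 75.8 and 312 CPM in Piezo Gel+US. Microglia markers, 5 of 7 with a row, summed to 394, 283 and 246 CPM in Gel+US and 369, 147 and 277 CPM in Piezo Gel+US. Both these sums were lowest in Piezo Gel+US replicate 2, and neither was highest in Gel+US replicate 2. Of the macrophage sums Gpnmb alone gave 184, 173 and 124 CPM in Gel+US and 302, 22.7 and 214 CPM in Piezo Gel+US. Cd68, Adgre1, Cd14, Msr1 and Mrc1 were each highest in Gel+US replicate 2. Gpnmb was highest in Piezo Gel+US replicate 1 and Cd163 in Piezo Gel+US replicate 3. Of the mast cell markers, Cpa3, Fcer1a and Ms4a2 were at 0 in at least 1 library. The part of these cells in the cytokine levels was not tested.

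Cntf, Il16, Il33 and Il34 had their highest value in the same library as another marker list. Schwann cell markers, 6 of 7 with a row, summed to 4337 to 7050 CPM in Gel+US and to 7041, 69865 and 12702 CPM in Piezo Gel+US. All 6 were higher in Piezo Gel+US, as were 8044 of the 17066 genes tested, and 0 were called. Each of the 6 had its highest value in Piezo Gel+US replicate 2. Fibroblast markers, all 6 with a row, summed to 835, 6611 and 671 CPM in Gel+US and 1069, 5835 and 1303 CPM in Piezo Gel+US. The 4 ligands were highest in Piezo Gel+US replicate 2, which was highest for the Schwann cell list and second for the fibroblast list. That library held the highest value of 29.2% of all genes. Elsewhere the order differed, as Il34 measured 31.8 CPM in Gel+US replicate 1 and 20.0 CPM in Gel+US replicate 3. The Schwann cell list summed to 4337 and 7040 CPM in those libraries. Neuron markers summed to 1164 CPM in Piezo Gel+US replicate 2 and astrocyte markers to 727, the lowest of the 6 in each case. Cntfr, Lifr, Il1rap and Tnfrsf21 were among the 20 tested members lowest there (29.0%, against 28.4% of all genes). Defining markers of cord tissue were present in every library, with 5 of 5 oligodendrocyte markers summing to 25734 to 50497 CPM. Whether Schwann cell content bears on these ligands was not tested.

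**Figure D5:**
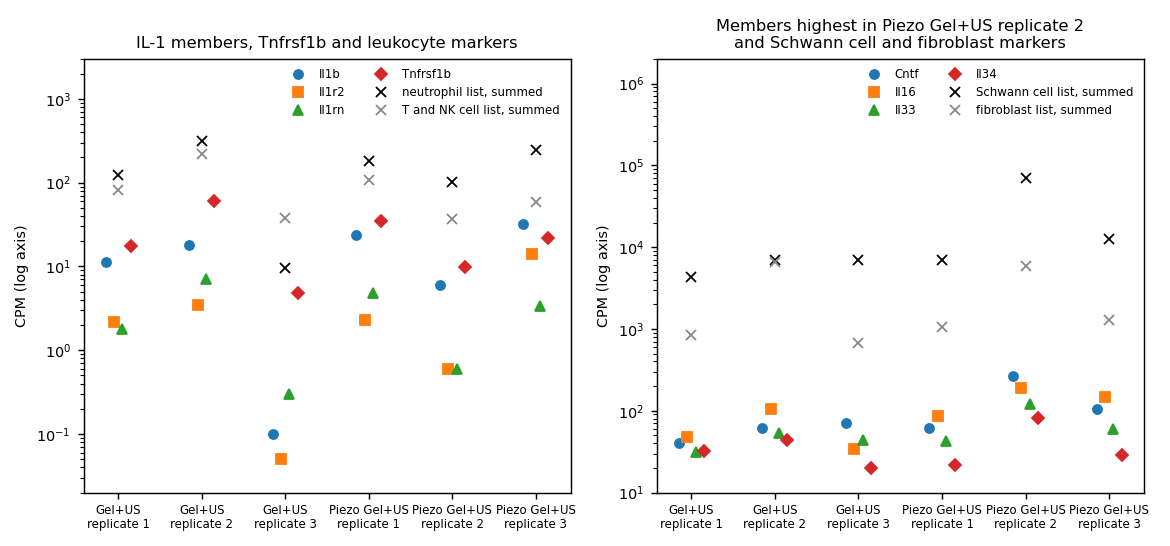
CPM on a log axis in each library of Il1b, Il1r2, Il1rn and Tnfrsf1b beside the summed neutrophil and T and NK cell markers (left), and of Cntf, Il16, Il33 and Il34 beside the summed Schwann cell and fibroblast markers (right). Gel+US replicate 3 is lowest for the IL-1 genes and the neutrophil list, and Piezo Gel+US replicate 2 is highest for the 4 ligands on the right and the Schwann cell list.

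No listed signalling gene downstream of these receptors passed the test. In the JAK-STAT list, 22 of 23 genes were tested, 8 above 0 and 14 below (median -0.055), and 0 were called. Socs3, the feedback inhibitor of gp130 signalling, measured 10.5, 22.2 and 4.66 CPM in Gel+US and 14.2, 20.1 and 28.6 CPM in Piezo Gel+US (log2 ratio 0.75, 95% interval -0.59 to 2.09). Jak1, the kinase bound to gp130, measured 199, 199.8 and 289 CPM in Gel+US and 215, 132 and 175 CPM in Piezo Gel+US (log2 ratio -0.40, 95% interval -1.01 to 0.21). Socs2 and Stat6 had log2 ratios of -0.50 and 0.49. The lowest of the list was Stat4, which transmits IL-12 signals in lymphocytes, at -0.97, highest in Gel+US replicate 2. Socs3 and Jak1 thus lay on opposite sides of 0, and both intervals include it. Of 12 genes listed as responding to gp130 and STAT3, 9 were tested, 6 above 0 and 3 below, and 0 were called. Their median was 0.40, beside -0.021 over all genes, with 0.49 for Lrg1, -0.14 for Cp and -0.24 for Pim1. All of the 9 except Fgg had their lowest value in Gel+US replicate 3, so this median leans on 1 library.

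Adaptors of the IL-1 and TNF receptors had medians close to 0. The IL-1 list had 14 of 16 genes tested, 8 above 0 and 6 below (median 0.042), from -0.39 for Tab3 to 0.21 for Tab1. The TNF list had 13 of 16 tested, 8 above and 5 below (median 0.058), with 0.50 for Traf2 and 0.46 for Tnfaip3, the A20 inhibitor of NF-kB, a highest value of 0.55 for Traf1, and -0.37 for Cyld and -0.31 for Traf3. Among NF-kB responsive genes 8 of 12 were tested, 5 above and 3 below (median 0.30). Relb had 0.92, Nfkb2 0.75, Vcam1 -0.25 and Sod2 -0.045. The intervals of Relb (-0.60 to 2.44) and Nfkb2 (-0.44 to 1.945) include 0. Both genes were highest in Piezo Gel+US replicate 2, at 28.3 CPM for Relb and 52.4 CPM for Nfkb2. All 5 genes above 0 had their lowest value in Gel+US replicate 3, and none of the 3 below did. The count called was 0 in each of these lists, against 0% of all genes, and 0 genes of these 3 lists reached an unadjusted p below 0.05.

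Of the family genes with other symbols 19 were tested, 8 above 0 and 11 below (median -0.17), and 0 were called. Eda, the TNF family ligand ectodysplasin, measured 2.86, 4.50 and 3.86 CPM in Gel+US and 5.34, 19.6 and 6.93 CPM in Piezo Gel+US (log2 ratio 1.51, 95% interval 0.22 to 2.79). By edgeR its unadjusted p was 0.0278 and its adjusted p 0.994. Eda was highest in Piezo Gel+US replicate 2, as was Cntf, and its groups did not overlap. On the lower side Tslp had -0.79 and Edar -0.66. The lowest log2 ratio was -1.71 for Cd40lg, the CD40 ligand of T cells, and Faslg, the Fas ligand, had -0.80, both highest in Gel+US replicate 2.

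Members often lay close together in the genome. Within 1 Mb of another member on the same sequence lay 52 of the 111, in 19 clusters. The largest held Il1r2, Il1r1, Il1rl2, Il1rl1, Il18r1 and Il18rap between 116360928 and 116771374, of which 4 were tested, with log2 ratios of 1.59, 0.042, -0.17 and -0.41 for Il1r2, Il1r1, Il1rl1 and Il18rap. Their highest values lay in Piezo Gel+US replicate 3, Piezo Gel+US replicate 2, Gel+US replicate 1 and Gel+US replicate 2. The cluster of Il4, Il13, Il5 and Csf2 and that of Il10, Il19, Il20 and Il24 held no tested member. Lif and Osm, adjacent between 73217087 and 73252100, were both highest in Gel+US replicate 2, and the neighbours Lifr and Osmr were highest in Gel+US replicate 3 and Gel+US replicate 2.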

How the data were processed

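Polyadenylated RNA from tissue of about 5 mm3 at the lesion centre was sequenced in 3 Gel+US and 3 Piezo Gel+US libraries, after TRIzol extraction, oligo(dT) selection and dUTP strand marking, per the labels' protocols. The authors deposited raw whole-number counts per gene. The submitters' processing notes name HISAT2 2.0.5 with fastp 0.19.7, and DESeq2 1.20.0 with featureCounts 1.5.0-p3, without roles. The genome build, and whether counting used strand, are not given in the sources used here. Opposite-strand neighbours overlap some members, and 10 members share their span with another gene, so their counts are uncertain.

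Counts were analysed in R 4.3.3 with edgeR 4.0.16: filterByExpr with a minimum count of 10, TMM scaling, the quasi-likelihood test of Piezo Gel+US against Gel+US, and Benjamini-Hochberg adjustment over all 17066 genes tested. CPM used TMM-scaled totals, and levels per kilobase used the gene lengths deposited in the table. The 95% intervals were computed from the log2 ratio, its F statistic and the total degrees of freedom, which add a prior shared across genes to the residual ones. DESeq2 1.42.0 was an alternative. The test was checked on simulated counts. Labels call the libraries biological replicates and do not say what a replicate number marks. Deviations from group means correlated at 0.253, 0.296 and 0.251 for equal numbers, and at -0.342 to 0.198 for unequal numbers. Each library's deviations are fixed by the others of its group, so these values are not independent. Whether equal numbers are pairs is thus not settled. The main test has no block, and the fit with the number as a block is given where it changes a count.

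Members and gene lists were chosen with earlier results of these data known. Named members were those of a fixed list, the 5 with the largest and the 5 with the smallest spread, the 5 with the lowest p in each direction and the 3 with the highest level per kilobase in each class. Il1rapl1 of the fixed list had no row with that symbol. Other members are named with counts or ranges, and were chosen after their values were seen. Other settings tried were relative log factors, library totals, no filter and leaving out each library. A gene of the other lists is not reported here.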

Additional observations from a re-analysis of the deposited data

How the results depend on the processing

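The number of members called was 0 under every alternative run: relative log factors, library totals only, no low-count filter, DESeq2, the replicate block, each library left out, and both libraries numbered 2 left out, the last chosen after seeing the data. The smallest adjusted p of a member ranged from 0.744 (without Gel+US replicate 2) to 1.00. Members at an unadjusted p below 0.05 numbered 2 with edgeR, 4 with the replicate block, 4 of 103 without the filter, and 0 to 3 with 1 library left out. The count over all genes was 359 in the main analysis, 986 with the block and 496 of 23240 genes without the filter. It was 652 of 23195 genes with DESeq2 and 141 to 775 with 1 library left out. The medians of ligands and receptors cover the members that each setting tested. These were 69 in the main fit and 103 with DESeq2, among them ligands below the filter. The ligand median ranged from 0.013 to 0.63 with 1 library left out and was -0.0021 with DESeq2. Over the same 69 members the median was -0.10 with DESeq2 and -0.099 in the main fit. For the 12 tested interleukin ligands it was 0.27 and 0.28. The receptor median ranged from -0.35 to 0.30 with 1 library left out and was 0.18 without both libraries numbered 2. Of the 45 named tested members, 45 kept their direction with relative log factors, with DESeq2 and without the filter. With library totals only the log2 ratio changed sign to -0.0068 for Il11ra and -0.044 for Il1r1. With the replicate block, which pairs libraries by number, it changed sign to 0.043 for Clcf1, 0.011 for Il17ra, 0.018 for Il18bp, -0.041 for Il1r1, 0.68 for Il1rn, 0.67 for Tnfrsf14, 0.32 for Tnfrsf1b and -0.032 for Tnfsf9. Without both libraries numbered 2 it changed sign to 0.43 for Clcf1, 0.12 for Cntfr, 0.19 for Csf1, 0.67 for Il10ra, 0.85 for Il17ra, 0.038 for Il18, 0.17 for Il18bp, 0.87 for Il18rap, 0.0020 for Il1a, -0.38 for Il1r1, 0.010 for Il1rl1, 1.97 for Il1rn, -0.045 for Il34, 0.15 for Il4r, 0.011 for Tnfrsf11b, 1.87 for Tnfrsf14, -0.0063 for Tnfrsf19 and 1.34 for Tnfrsf1b. With 1 library left out at a time, the log2 ratio crossed 0 for 28 of the named members, with ranges of -1.02 to 0.82 for Clcf1, -0.31 to 0.13 for Cntfr, -0.23 to 0.14 for Csf1, -0.59 to 0.32 for Il10ra, -0.28 to 0.37 for Il11ra, -0.66 to 0.51 for Il17ra, -0.36 to 0.23 for Il18bp, -1.62 to 0.30 for Il18rap, -1.80 to 0.32 for Il1a, -0.50 to 0.27 for Il1r1, -0.39 to 2.36 for Il1r2, -0.35 to 0.11 for Il1rap, -0.37 to 0.11 for Il1rl1, -0.62 to 1.49 for Il1rn, -0.36 to 0.76 for Il34, -0.41 to 0.079 for Il4r, -0.072 to 0.63 for Il6r, -1.15 to 0.39 for Lif, -0.41 to 1.05 for Osm, -0.62 to 0.12 for Tnfrsf11a, -0.43 to 0.043 for Tnfrsf11b, -0.029 to 0.65 for Tnfrsf12a, -1.43 to 1.63 for Tnfrsf14, -0.016 to 0.17 for Tnfrsf19, -0.21 to 0.51 for Tnfrsf1a, -0.82 to 0.98 for Tnfrsf1b, -0.10 to 0.45 for Tnfsf13b and -0.46 to 0.25 for Tnfsf9. Sign was kept in all of these fits by 23 of the 69 tested members. The cause of these changes was not tested. Low counts kept 42 members out of the test. Intervals of log2 ratios of the scarce ligands span several units.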
